A study of Mus musculus with 30 samples.

Results

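Sox11 and Sox4 were followed through RNA-seq and ATAC-seq libraries of mouse retinal ganglion cells (RGCs), whose axons make up the optic nerve, before and after that nerve was crushed. They were taken by name: 2 of 13752 genes in the RNA count table, the 12 of 151630 ATAC peaks that the deposited annotation assigns to either gene (7 to Sox11 and 5 to Sox4), and the 5 rows named Sox11 or Sox4 among 1312 rows of motif scores. ATAC-seq cuts open chromatin with a transposase, so the reads in a peak measure how accessible that stretch of DNA is.

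Both genes encode SOXC proteins, transcription factors that bind DNA through an HMG box, and both genes are intronless. In the developing mouse retina Sox4 and Sox11 act together in the formation of RGCs, and their levels fall as the neurons mature. Sox11 is also known for its return in injured neurons, where it lies downstream of the stress kinase DLK, and forced Sox11 makes some kinds of mouse RGC regrow axons while others die.

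The crushed groups were sorted RGCs taken 1, 2, 3 and 4 days after optic nerve crush, and the uncrushed group is called day 0. The authors' footprint scores and fold changes name the day 0, 1 and 3 groups nonTarget or NT, and no other arm was analysed here. RNA counts were analysed for 3, 3, 2, 3 and 2 libraries of days 0, 1, 2, 3 and 4, which is 13 of the 15 labelled RNA samples, with day 2 replicate 3 and day 4 replicate 1 not analysed here. ATAC counts were analysed for 6, 3 and 6 libraries of days 0, 1 and 3. The day of each ATAC library follows its title and treatment label, which the columns of the count table match, whereas the description label of all 15 ATAC samples names a peak file of another library, so that a day 1 sample, for instance, cites a file of the uncrushed group. Per the labels all animals were C57BL/6 mice, except that day 0 RNA replicates 2 and 3 are labelled C57BL/7 and C57BL/8, and cells were freed with papain and sorted by fluorescence, 5000 to 10000 for each RNA library and 50000 to 100000 for each ATAC library. The labels give neither the age of the mice nor the marker used in the sort. Whether the libraries of a day stem from different mice is also not stated, so each p-value measures only the spread between libraries, which may be technical.

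RNA libraries held 19024286 to 27561352 counts and ATAC libraries 20006724 to 72579102 counts in peaks. All 7 RGC markers searched for (Rbpms, Pou4f1, Pou4f2, Slc17a6, Sncg, Thy1, Nefl) were present, and their summed level in CPM, counts scaled to a fixed library size, was 7853 to 8389 on day 0, 5844 to 6803 on day 1, 4939 to 5506 on day 2, 5426 to 5596 on day 3 and 4767 to 5085 on day 4. The rod markers Nrl, Sag, Gnat1 and Pde6b summed to between 87.9 and 406 CPM over the 13 libraries, 5 of 6 amacrine and horizontal cell markers to between 69.8 and 391 CPM, 4 of 5 Mueller glia and astrocyte markers to between 141 and 206 CPM, and the 5 microglia markers to between 12.4 and 101 CPM. Other lists were lower still, with cone markers at no more than 21.6, bipolar cell markers at no more than 18.1 and 2 of 3 oligodendrocyte markers at no more than 30.3 CPM, and the vascular markers were not analysed here. The RNA kit does not mark strand, so reads of a gene and of an antisense partner cannot be told apart, and in such bulk libraries fewer cells of a type and less RNA per cell cannot be told apart either.

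After crush the RNA of the 2 genes moved in opposite directions. Sox11 rose on every day tested and ended among the genes with the most reads in the sorted cells. Sox4 stayed within its day 0 range on day 1 and fell on days 2, 3 and 4. The levels below are CPM after TMM scaling, a correction for differences in library composition.

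Sox11 lies on chromosome 12 of build mm10, from 27334264 to 27342574 on the minus strand. Its level was 38.5, 41.9 and 45.5 CPM in the day 0 libraries, 301, 345 and 298 CPM on day 1, 825 and 842 CPM on day 2, 913, 955 and 858 CPM on day 3, and 1318 and 1360 CPM on day 4. Every crushed library was above every day 0 library, and none of the 5 days overlapped, the closest being day 2 and day 3. By mean CPM, which is not corrected for gene length, Sox11 was number 4549 of the 13737 genes tested on day 0. It was number 581 on day 1, 116 on day 2, 102 on day 3 and 48 on day 4. Against day 0 the log2 difference was 2.90 ± 0.0856 on day 1, 4.31 ± 0.0942 on day 2, 4.43 ± 0.0913 on day 3 and 4.99 ± 0.0966 on day 4 (± SE), with edgeR adjusted p-values of 1.92e-12, 1.50e-14, 5.73e-15 and 2.07e-15. Genes called higher at the same threshold, an adjusted p below 0.05, made up 5.93% of those tested on day 1, 14.8% on day 2, 20.4% on day 3 and 19.8% on day 4, and the median log2 difference of all genes was 0.01, 0.04, 0.03 and 0.06.

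The steps of Sox11 between neighbouring days were uneven. Day 2 was above day 1 by 1.41 on the log2 scale (edgeR adjusted p = 1.02e-07), when 13% of genes were called in either direction. Day 3 against day 2 gave 0.12 (edgeR adjusted p = 0.383), and 16.9% of genes were called. Day 4 was above day 3 by 0.56 (edgeR adjusted p = 0.00683), in a comparison that called 1.74% of genes. That last call was lost without day 4 replicate 3, when the difference was 0.54 with an adjusted p of 0.0953, and on the authors' normalized values, where it was 0.56 with an adjusted p of 0.0814.

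Sox4 lies on chromosome 13 of mm10, from 28948919 to 28953713 on the minus strand, and was the weaker gene throughout, with 47 to 441 counts in a library against 711 to 35280 for Sox11. Its level was 8.66, 13.4 and 17.1 CPM in the day 0 libraries, 10.4, 11.4 and 13.2 CPM on day 1, 6.77 and 4.65 CPM on day 2, 1.97, 5.24 and 3.72 CPM on day 3, and 3.96 and 3.84 CPM on day 4. The day 1 libraries lay inside the day 0 range, and all 7 libraries of days 2 to 4 lay below the lowest day 0 library. The log2 difference from day 0 was −0.17 ± 0.317 on day 1 (edgeR adjusted p = 0.796), −1.196 ± 0.372 on day 2 (0.0229), −1.85 ± 0.333 on day 3 (2.55e-04) and −1.75 ± 0.383 on day 4 (0.00151). The authors' own deposited Sox4 difference was −0.21 on day 1 (authors' adjusted p = 0.816). On day 3 it was −1.26 (authors' adjusted p = 0.00611), a smaller fall. In the edgeR tests the share of genes called lower was 5.45% on day 1, 14.5% on day 2, 20.1% on day 3 and 19% on day 4.

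The day 2 call for Sox4 was the weakest of these. It was lost on leaving out day 0 replicate 3 (log2 difference −0.97, adjusted p = 0.0738), day 2 replicate 1 (−1.49, 0.0501) or day 2 replicate 2 (−0.95, 0.203), and those of days 3 and 4 held without any single library. No step between neighbouring crushed days passed the test, with log2 differences of −1.03 for day 2 against day 1 (edgeR adjusted p = 0.0838), −0.65 for day 3 against day 2 (0.254) and 0.10 for day 4 against day 3 (0.938). Over all days together both genes passed the edgeR test, with an adjusted p of 2.09e-14 for Sox11 and 3.57e-04 for Sox4, as did 47.1% of genes.

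Among the 3 uncrushed libraries Sox4 ran opposite to several marker lists, among them the amacrine and horizontal cell markers and the rod markers. Over the crushed days Sox4 did not follow the rod markers. In day 0 replicates 1, 2 and 3 the amacrine and horizontal cell markers summed to 271, 195 and 69.8 CPM and these rod markers to 379, 115 and 87.9 CPM, where Sox4 was at 8.66, 13.4 and 17.1 CPM. The cone, microglia and oligodendrocyte sums fell in the same order over these replicates. The bipolar cell sums and the Mueller glia and astrocyte sums did not. So few libraries cannot tie this order to a cell type. The amacrine and horizontal cell sums were 182 to 226 CPM on day 1, 306 to 391 CPM on day 2, 213 to 303 CPM on day 3 and 239 to 267 CPM on day 4. The rod sums were 298 to 406 CPM on day 1, when Sox4 was within its day 0 range, 105 to 139.6 CPM on day 2, when it was called lower, 251 to 326 CPM on day 3 and 122 to 250.1 CPM on day 4. The part of any of these cell types in the fall of Sox4 was not tested.

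**Figure D1:**
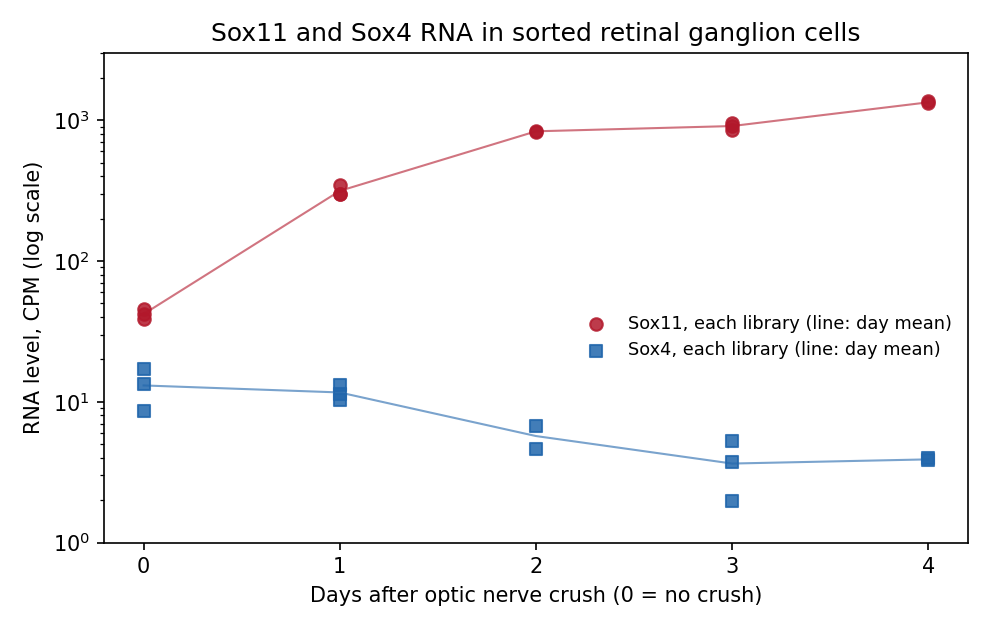
RNA level of Sox11 (circles) and Sox4 (squares) in CPM on a log axis against days after crush, with 1 point for each of 13 libraries and lines through the day means. Sox11 ran upward to a mean of 1339 CPM on day 4 and Sox4 downward to means of 3.64 CPM on day 3 and 3.90 CPM on day 4.

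Per kilobase of gene, which allows the 2 genes to be set against each other, Sox11 averaged 5.05, 37.9, 100.3, 109 and 161 CPM per kb on days 0, 1, 2, 3 and 4, and Sox4 averaged 2.72, 2.43, 1.19, 0.759 and 0.813 CPM per kb. The ratio of these means was 1.85 on day 0, 15.6 on day 1, 84.2 on day 2, 144 on day 3 and 198 on day 4. Within each library, the log2 ratio of Sox11 to Sox4 in CPM averaged 6.95 ± 1.62 over the 10 crushed libraries (range 4.49 to 8.79) and 1.73 ± 0.376 over the 3 day 0 libraries (range 1.40 to 2.14, both ± SD). The difference of 5.22 gave a two-sided exact permutation p of 0.0035, the smallest that 286 arrangements allow. A single crushed day against day 0 cannot go below an exact p of 0.1, and each gave that value, with differences of 3.02, 5.46, 6.30 and 6.66 on days 1, 2, 3 and 4.

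Sox12, the third SOXC gene, also fell on days 2, 3 and 4. Its mean level was 15.5 CPM on day 0, 17.3 on day 1, 9.0 on day 2, 9.83 on day 3 and 6.96 on day 4. The log2 difference from day 0 was 0.16 on day 1 (edgeR adjusted p = 0.742), −0.79 on day 2 (0.0417), −0.66 on day 3 (0.0387) and −1.16 on day 4 (0.0033). Of the other 4 SOX genes tested, only Sox6, a SOXD gene, was called, and it fell on all 4 days, to 14.1 ± 1.23 CPM on day 3 against 55.2 ± 8.75 CPM on day 0 (SD, n = 3 each, log2 difference −1.97, edgeR adjusted p = 4.94e-07). Sox5, Sox9 and Sox13 passed on no day, the nearest being Sox9, a glial SOXE gene, with 4.72 ± 1.58 CPM on day 4 (n = 2) against 1.26 ± 1.201 CPM on day 0 (n = 3) and an edgeR adjusted p of 0.0563.

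Thus 7 of the 19 SOX genes searched for were tested, and the other 12 were not analysed here. Sox11 was the 1 member called higher on each day, while 1 member was called lower on day 1 (Sox6) and 3 on each of days 2, 3 and 4 (Sox4, Sox6, Sox12). Over all genes 5.93%, 14.8%, 20.4% and 19.8% were called higher and 5.45%, 14.5%, 20.1% and 19% lower on days 1, 2, 3 and 4. The median log2 difference of the 7 was 0.05, 0.09, 0.23 and 0.65 on days 1 to 4, above the all-gene medians given for Sox11. Each of these medians was the value of an uncalled gene, Sox9 on days 1 and 2 and Sox5 on days 3 and 4. SOXD and SOXE genes belong to other branches of the family, with other partners and roles.

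**Figure D2:**
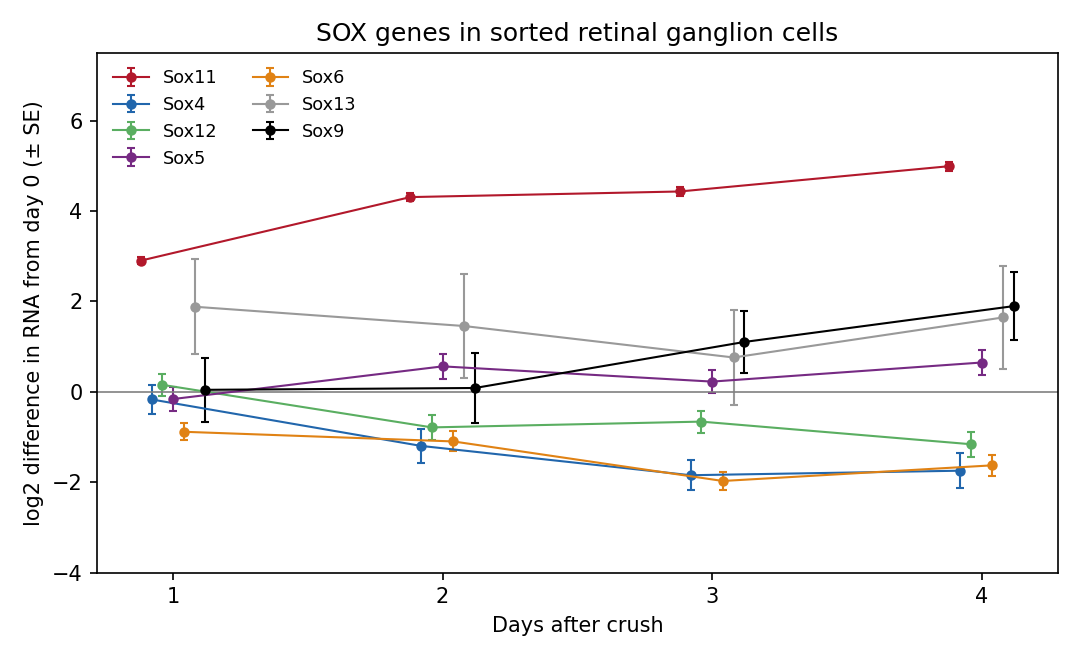
Log2 difference in RNA from day 0 (± SE) for the 7 SOX genes tested, on days 1 to 4 after crush. Sox11 stood at 2.90 or more on every day, Sox4, Sox6 and Sox12 lay below 0 from day 2 on, and Sox9 and Sox13 had the widest errors.

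The genes whose RNA pattern was most like that of each member were ranked by Pearson's r of log2 CPM over the 13 libraries, among 10352 other genes with a mean of at least 5 CPM. The libraries share their day, so r mostly tracks day means and is given as a description. For Sox11 the 5 highest were Hrk (r = 0.994), Rhoq (0.987), Atf3 (0.987), Bcl2l11 (0.986) and Avl9 (0.985). Hrk and Bcl2l11 encode pro-apoptotic BH3-only proteins, Rhoq a small GTPase and Atf3 a stress-induced transcription factor. Hrk averaged 2.29 CPM on day 0, 44.9 on day 1, 145 on day 2, 175 on day 3 and 229.8 on day 4. Bcl2l11 averaged 14.3, 127, 264, 214 and 311 CPM on days 0, 1, 2, 3 and 4. Ranked by Spearman's correlation instead, Atf3 was number 52, Hrk 72 and Rhoq 143, Bcl2l11 tied at 431.5 and Avl9 at 578.5.

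For Sox4 the 5 highest were Xrcc3 (r = 0.962), a DNA repair gene, Dpf1 (0.961), a subunit of the neuronal BAF chromatin remodeller, Pip5k1c (0.952), a phosphoinositide kinase, Kctd1 (0.949) and 1110032F04Rik (0.948). Xrcc3 was as weak as Sox4, with mean levels of 10.4, 8.75, 6.07, 3.09 and 3.43 CPM on days 0, 1, 2, 3 and 4. Dpf1 averaged 9.53, 9.24, 7.38, 5.86 and 6.04 CPM on the same days, a shallower course.

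Other lists concern the company of Sox11. Of the 6 regulators of the axon injury response that act with or before Sox11, the transcription factors Jun, Atf3 and Mef2a were called higher on all 4 days, and the DLK and LZK kinase genes Map3k12 and Map3k13 on none. Jun stood at 475 ± 14.6 CPM on day 1 against 88.2 ± 34.1 CPM on day 0 (SD, n = 3 each, log2 difference 2.43, edgeR adjusted p = 2.07e-07), and Atf3 at 487 ± 39.8 CPM on day 3 against 3.49 ± 1.12 CPM on day 0 (SD, n = 3 each, 7.14, edgeR adjusted p = 4.88e-14). Atf2 was called lower on days 3 and 4, with 389.8 ± 22.4 CPM on day 3 against 506 ± 41.4 CPM on day 0. The median log2 difference of the 6 was 0.55, 0.74, 0.35 and 0.35 on days 1 to 4, beside 0.01, 0.04, 0.03 and 0.06 over all genes, of which 5.93% to 20.4% were called higher and 5.45% to 20.1% lower on a day.

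Of 10 genes reported as SOXC targets in neurons, 9 were tested, and Tead2 was not analysed here. They moved in both directions, with 1, 3, 3 and 4 called higher and 2, 4, 5 and 5 called lower on days 1, 2, 3 and 4, and median log2 differences of 0.06, −0.18, −0.41 and −0.64. The shares of all genes called on those days were 5.93%, 14.8%, 20.4% and 19.8% higher and 5.45%, 14.5%, 20.1% and 19% lower. Sprr1a, a gene tied to axon regrowth, had mean levels of 1.45 CPM on day 0, 5.85 on day 1, 174 on day 2, 662 on day 3 and 409 on day 4. The neurotrophin gene Bdnf stood at 126 ± 3.86 CPM on day 3 against 53.5 ± 11.3 CPM on day 0 (SD, n = 3 each, log2 difference 1.24, edgeR adjusted p = 4.33e-07). The neuronal tubulin gene Tubb3 fell to 109 ± 2.52 CPM on day 3, against 289 ± 52.2 CPM on day 0 (SD, n = 3 each, −1.41, edgeR adjusted p = 5.78e-08). Pou4f2, the RGC transcription factor that is also one of the RGC markers above, fell to 54.6 ± 3.36 CPM on day 3, against 228 ± 15.8 CPM on day 0 (SD, n = 3 each, −2.06, edgeR adjusted p = 1.42e-10). Dcx, a microtubule protein gene of young neurons, was called higher on days 2 and 4, with log2 differences of 0.73 and 0.61, and gave −0.24 on day 3 (edgeR adjusted p = 0.207).

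At the Sox11 locus, accessibility rose at the promoter by day 3 and at 1 distal peak by day 1, while at the Sox4 locus it rose at 1 distal peak and the Sox4 promoter was not called in the fit of all libraries. Of the 12 peaks, 2 were called higher on day 1 against day 0 and 3 on day 3 against day 0, and in the fits of all libraries none was lower by edgeR or DESeq2, also at an unadjusted p below 0.05 in edgeR. The background was 5.44% of all peaks higher and 2.4% lower on day 1, and 16.4% higher and 7.39% lower on day 3. The median log2 difference of the 12 peaks was 0.07 on day 1 and 0.23 on day 3, beside 0.06 and 0.03 over all peaks. For day 3 against day 1 edgeR called 0 of the 12 in either direction, 2 had an unadjusted p below 0.05, DESeq2 called 1, and 0.987% of all peaks were higher and 0.193% lower.

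The ATAC libraries fall into 2 batches in the authors' covariate table, which does not say what a batch stands for. Batch 2 holds replicates 1 to 3 of days 0, 1 and 3, and batch 1 holds replicates 4 to 6 of days 0 and 3, so day 1 was measured in 1 batch only. The share of reads in peaks was 32.2% to 49.6% on day 0, 15.7% to 18.6% on day 1 and 17.3% to 45.6% on day 3. The edgeR fits had batch as a term, and the in-peak read share was tried as a further term.

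The Sox11 promoter peak spans chr12:27340964-27343991 and covers the start of the gene. In batch 2 it held 10.0, 17.7 and 13.6 CPM on day 0, 16.1, 13.7 and 19.8 CPM on day 1, and 22.5, 22.2 and 29.9 CPM on day 3. In batch 1 it held 29.2, 27.6 and 31.8 CPM on day 0 and 27.7, 38.2 and 37.5 CPM on day 3. Within batch 2 the day 3 libraries all lay above the day 0 libraries, in batch 1 the groups overlapped, and day 0 was higher in batch 1 than day 3 in 2 of the batch 2 libraries. Day 3 exceeded day 0 by 0.53 ± 0.148 on the log2 scale (edgeR adjusted p = 0.0105), whereas day 1 gave 0.09 (0.792) and day 3 against day 1 gave 0.44 (0.204). Of the 21902 promoter peaks that cover a start site, 7.99% were called higher and 11.98% lower on day 3.

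The promoter call rested on batch 2. In a fit of days 0 and 3 with a separate day effect for each batch, added after the values were seen, the log2 difference was 0.79 in batch 2 (edgeR adjusted p = 0.00152) and 0.27 in batch 1 (0.511). The 2 batch effects differed by 0.52 with an unadjusted p of 0.0523 and an adjusted p of 0.293, so a difference between batches was not shown. Without the batch term the call was lost (0.46, edgeR adjusted p = 0.303).

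The strongest change at Sox11 was at a peak of 544 bases that lies 125.4 kb upstream, at chr12:27467959-27468502, and that the annotation calls distal intergenic. It held 0.506, 1.01, 1.11, 1.10, 1.77 and 1.79 CPM in day 0 replicates 1 to 6, 2.25, 2.01 and 2.23 CPM on day 1, and 2.34, 1.03, 1.72, 3.14, 3.69 and 3.50 CPM in day 3 replicates 1 to 6. Day 1 did not overlap with day 0, and day 3 did overlap through replicates 2 and 3. The log2 difference from day 0 was 1.35 ± 0.252 on day 1 (edgeR adjusted p = 0.00867) and 1.06 ± 0.197 on day 3 (4.03e-04), and on day 3 it was 0.90 in batch 2 (0.0220) and 1.19 in batch 1 (0.00612). The day 1 call was lost without the batch term (0.85, adjusted p = 0.319) and on the authors' batch-adjusted values (1.25, adjusted p = 0.0562). In both of those settings no peak of the whole set was called higher on day 1. The authors' own deposited day 1 difference for this peak was 1.43 (authors' adjusted p = 0.0165).

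The other 5 Sox11 peaks were not called in the fit of all libraries. A peak 14.4 kb upstream gave log2 differences of 0.62 on day 1 (edgeR adjusted p = 0.0657) and 0.20 on day 3 (0.416). Its day 1 difference was called in batch 2 alone (0.60, adjusted p = 0.0426), with scaling by library size alone (0.83, 0.01998) and without day 0 replicate 6 (0.68, 0.0286). A peak 2.6 kb downstream of the start, in the 3′ untranslated region, gave 0.29 on day 3 (0.0791). It was called with scaling by library size alone (0.34, adjusted p = 0.0377), with the in-peak read share in the model (0.43, 0.0227), and without day 0 replicate 2 (0.36, 0.0423) or day 3 replicate 4 (0.35, 0.0387). Peaks 37.2 kb downstream and 21.2 kb and 102.4 kb upstream were weak, with 22 to 151 counts in a library. The called peak 125.4 kb upstream was as weak, with 27 to 141 counts, and the peak 14.4 kb upstream had 32 to 116.

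**Figure D3:**
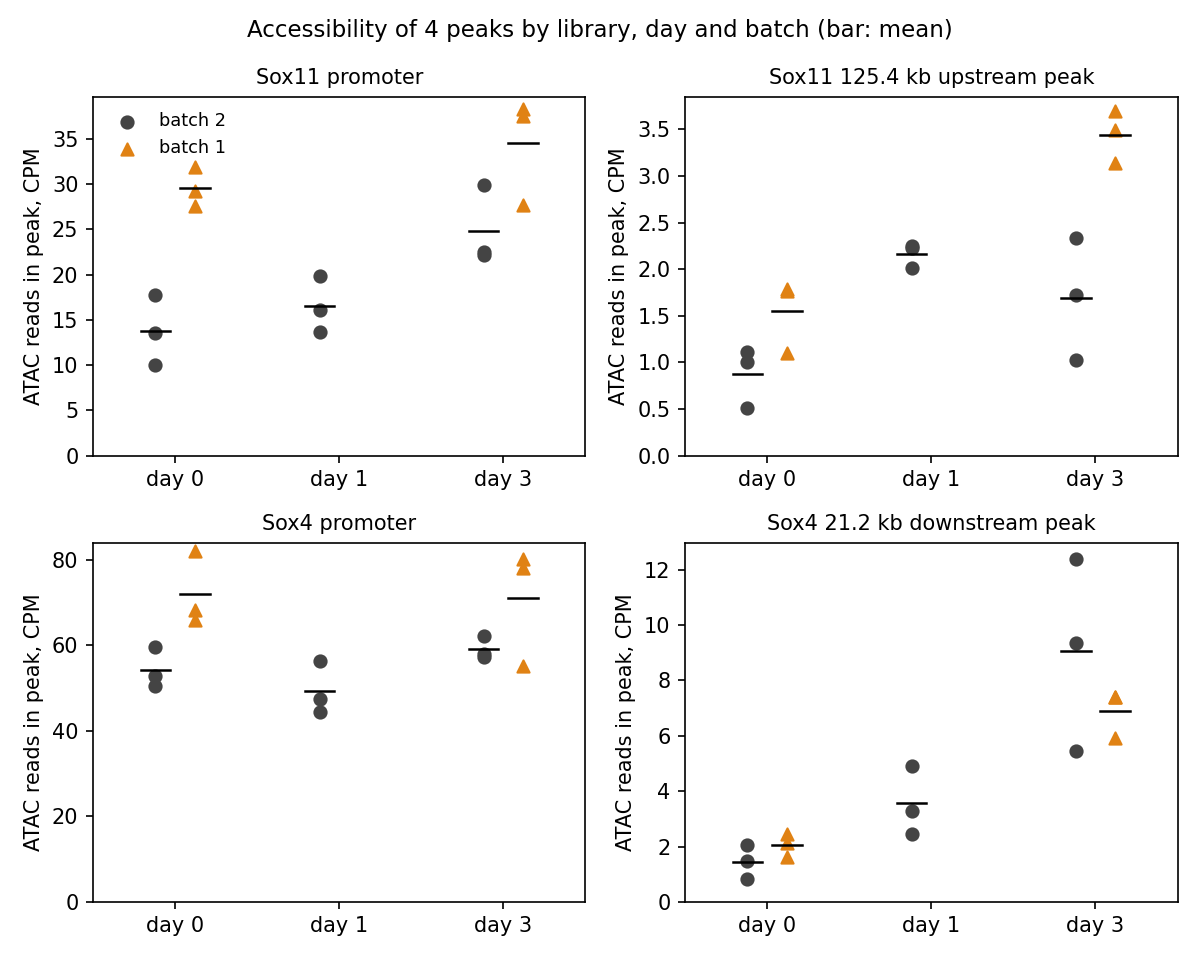
ATAC reads in 4 peaks, in CPM, for each of 15 libraries on days 0, 1 and 3, with circles for batch 2, triangles for batch 1 and bars for means. The Sox4 peak 21.2 kb downstream has every day 3 library (5.45 to 12.4 CPM) above every day 0 library (0.813 to 2.44 CPM), while the promoter panels show the offset between batches on day 0.

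At Sox4 the largest change was at a distal intergenic peak of 1286 bases that lies 21.2 kb downstream of the start, at chr13:28931268-28932553. It held 1.48, 0.813, 2.05, 2.14, 1.60 and 2.44 CPM in day 0 replicates 1 to 6, 3.30, 2.46 and 4.90 CPM on day 1, and 5.45, 9.35, 12.4, 5.91, 7.39 and 7.42 CPM in day 3 replicates 1 to 6. The 3 days did not overlap, and the lowest day 1 library lay just above the highest day 0 library. Day 3 exceeded day 0 by 2.23 ± 0.238 on the log2 scale (edgeR adjusted p = 8.47e-07), with 2.64 in batch 2 and 1.81 in batch 1 (3.16e-08 and 8.96e-05), and this call held under every alternative tried. The day 1 difference of 1.06 ± 0.310 passed narrowly (edgeR adjusted p = 0.042). It was lost when any 1 of 7 of the 9 libraries concerned was left out, with log2 differences between 0.76 and 1.27 and adjusted p-values between 0.0554 and 0.200 (day 0 replicates 1, 2, 3 and 5 and all 3 of day 1). With the in-peak read share in the model it was 0.58 (adjusted p = 0.499). The authors' own deposited day 1 difference for this peak was 0.66 (authors' adjusted p = 0.283).

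The Sox4 promoter peak spans chr13:28947745-28954915, longer than the gene itself, and held 50.4 to 82.1 CPM on day 0, 44.5 to 56.2 CPM on day 1 and 55.1 to 80.1 CPM on day 3. These ranges overlap, and the log2 difference from day 0 was −0.17 ± 0.140 on day 1 (edgeR adjusted p = 0.439) and 0.05 ± 0.105 on day 3 (0.780). On day 1 its sign flipped to 0.03 with scaling by library size alone, a scaling that moved the median of all peaks to 0.28. With the trend with peak strength removed, the day 3 difference was 0.23 and was called (adjusted p = 0.0383). A broad peak 3.4 kb upstream, at chr13:28957156-28960379, gave −0.28 ± 0.144 on day 1 (edgeR adjusted p = 0.203) and −0.18 ± 0.109 on day 3 (0.264). It was called lower in batch 2 alone on both days (−0.40 each, adjusted p = 0.0219 on day 1 and 0.0198 on day 3), and on day 1 with only the libraries of the 2 days in the fit (−0.41, 0.00508). With a separate day effect for each batch its day 3 difference was not called in batch 2 (−0.37, edgeR adjusted p = 0.0811) or in batch 1 (0.00286, 0.996). The peaks 6.9 and 7.5 kb downstream had 8 to 41 counts in a library and were not called. On day 3, when Sox4 RNA was called lower, its promoter peak was thus not called lower and its peak 21.2 kb downstream was called higher.

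**Figure D4:**
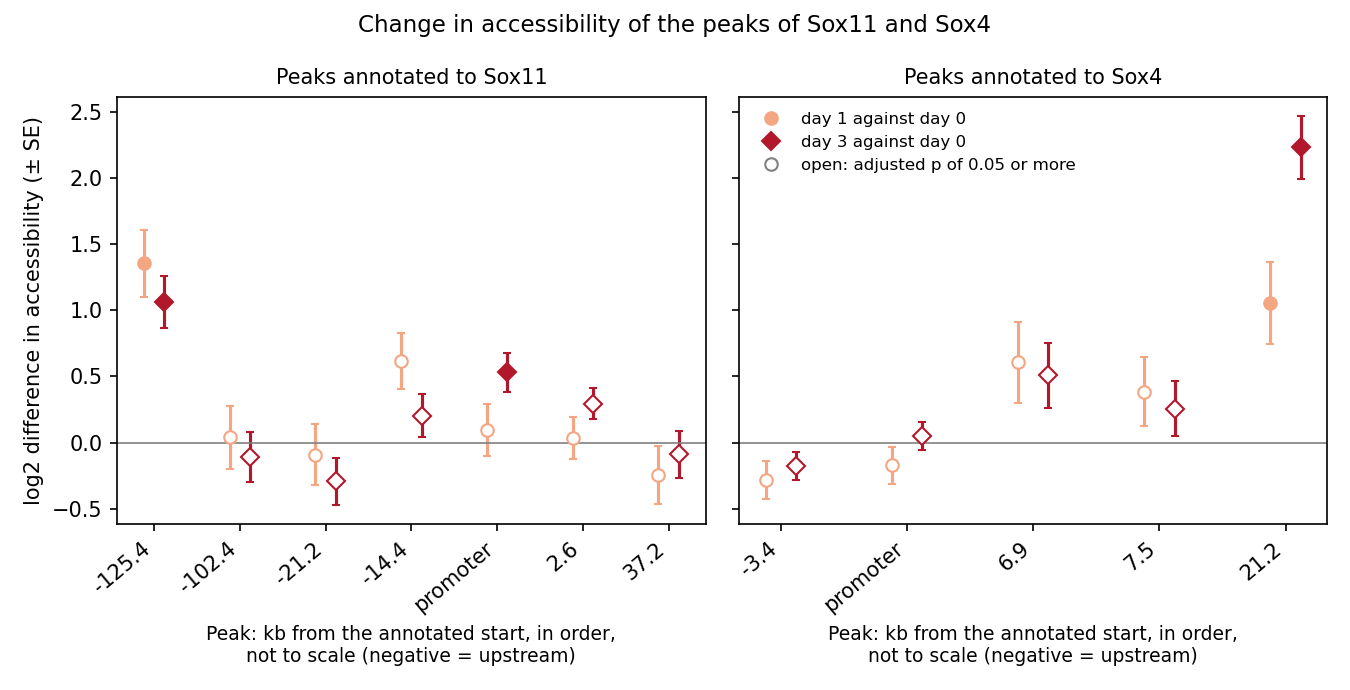
Log2 difference in accessibility (± SE) on day 1 (circles) and day 3 (diamonds) against day 0 for the 7 peaks of Sox11 and the 5 peaks of Sox4, ordered by distance from the annotated start. Filled symbols passed an adjusted p below 0.05: the Sox11 peak at 125.4 kb and the Sox4 peak at 21.2 kb on both days, and the Sox11 promoter on day 3.

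The authors' deposited tables give their own links between peaks and RNA. The authors' deposited table of promoter links gives a correlation of 0.785 (authors' p = 0.0326) between the Sox11 promoter peak and Sox11 RNA, and 8.54% of its 6882 links are as high or higher. It lists none for Sox4. In the authors' deposited table of distal links, whose 169469 entries have a median of 0.318, Sox11 is linked to the peak 125.4 kb upstream at 0.556 (authors' p = 0.0949), and Sox4 to the peak 3.4 kb upstream at 0.885 (authors' p = 0.0184). The authors' deposited table of distal links also ties Sox11 at 0.563, and Sox4 at 0.547 and 0.216, to peaks annotated to other genes. For Sox11 that value is slightly above the value of the peak 125.4 kb upstream. The Sox4 peak 21.2 kb downstream is not among the Sox4 links of the authors' deposited table.

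The authors also scored footprints, the dips in transposase cuts that a bound protein leaves, at motif sites of the stress factors ATF3, ATF4, CEBPG and DDIT3, with libraries pooled by day, so each value has no error. Inside the 12 peaks they list 5 sites, and none is a DDIT3 site. In each promoter peak 1 site lies upstream of the start, and both of these are called bound on all 3 days. Those 2 sites and the bases around them are shown because there a stress factor motif was scored just upstream of each gene. A footprint at a motif site does not tell which protein is bound. The sequences are RefSeq's for build GRCm38.p6, 5′ to 3′ on the minus strand, with the footprint site in capitals and everything else upstream of the start.

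Sox11 promoter, chr12:27342719-27342968, minus strand: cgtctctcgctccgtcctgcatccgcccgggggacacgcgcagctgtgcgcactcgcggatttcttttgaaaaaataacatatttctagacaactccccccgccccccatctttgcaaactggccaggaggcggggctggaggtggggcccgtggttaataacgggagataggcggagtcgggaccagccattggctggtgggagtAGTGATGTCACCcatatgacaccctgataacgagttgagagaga
Sox4 promoter, chr13:28953714-28953949, minus strand: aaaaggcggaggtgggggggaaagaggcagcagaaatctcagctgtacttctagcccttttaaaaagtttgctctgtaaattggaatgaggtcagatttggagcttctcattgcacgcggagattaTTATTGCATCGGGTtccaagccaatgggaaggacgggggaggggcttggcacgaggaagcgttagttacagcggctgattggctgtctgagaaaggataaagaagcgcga

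The capitals in the Sox11 promoter are an ATF3 site at chr12:27342751-27342762, which lies 33 to 44 bases before RefSeq's start, and those in the Sox4 promoter are an ATF4 site at chr13:28953810-28953823, which lies 111 to 124 bases before RefSeq's start. The annotation of the deposited files starts Sox11 144 bases further downstream and Sox4 14 bases further upstream. The footprint score of the Sox11 site was 0.285 on day 0, 0.435 on day 1 and 0.576 on day 3, where the median of the 20364 ATF3 sites was 0.109, 0.176 and 0.194. The score of the Sox4 site was 0.629, 0.653 and 1.33, where the median of the 6158 ATF4 sites was 0.101, 0.167 and 0.176. Both scores stood high among sites of the same factor before any injury, with 13.5% of ATF3 sites at or above the Sox11 site on day 0 and 10.6% on day 3, and 2.92% of ATF4 sites at or above the Sox4 site on day 0 and 1.85% on day 3.

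The day 3 score of the Sox11 site was 2.02 times its day 0 score, and that of the Sox4 site was 2.11 times. The other 3 sites scored lower. A site shared by ATF4 and CEBPG in the Sox4 promoter peak, 839 bases into the gene, scored 0.253, 0.385 and 0.264 on days 0, 1 and 3 and was called bound on all of them. Another such site in the Sox11 promoter peak, 1466 bases into the gene, scored 0.0488, 0.140 and 0.147 and was called bound on day 3 alone. Of all ATF4 sites 25.8%, 69.3% and 77.4% were called bound on days 0, 1 and 3. For CEBPG sites the shares were 27.7%, 70.9% and 78.4%. An ATF3 site in the Sox11 peak 125.4 kb upstream scored 0.0562, 0.149 and 0.106 and was called bound on day 1 alone, when 72.7% of all ATF3 sites were, compared with 32.6% on day 0 and 81.5% on day 3.

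A search of both strands of the 300 bases around RefSeq's start (250 before and 50 after) for 5 motifs gave 1 match in the 2 genes. TGATGTCA, an ATF and CREB type motif, occurred once in the Sox11 promoter, 42 bases before the start and inside the footprint site in capitals above. It was present in 3.62% of 32851 promoters in the RefSeq table. TGACGTCA (1.79% of promoters), TGATGCAA (0.895%), the AP-1 motif TGANTCA (7.81%) and the SOX-type core ACAAAG (18.7%) had no match in these windows of either gene. No motif matched inside the Sox4 footprint site.

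The chromVAR scores summarise, for each motif, how far the accessibility of the peaks that hold it departs in a library from that of other peaks, as a z-score. The 5 rows were 1 for Sox11 from JASPAR and 4 for Sox4, from JASPAR, from UniPROBE and from human and mouse HOCOMOCO, and those last 2 were identical. All of them read nearly the same letters, and over the 15 libraries each correlated with the Sox11 row at r of 0.944 to 0.988, so they are not separate readings of the 2 proteins.

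The Sox11 row scored 0.166, −2.04, −2.52, −1.09, −3.44 and −2.62 in day 0 replicates 1 to 6, −2.96, −5.19 and −2.08 on day 1, and 2.27, 5.15, 4.66, 2.79, 1.44 and 3.79 in day 3 replicates 1 to 6. Every day 3 library lay above every library of days 0 and 1, and day 1 overlapped with day 0. In the Sox4 rows day 3 again stood apart, with means of 3.36 ± 1.64 on day 3, −4.05 ± 1.79 on day 1 and −2.01 ± 1.60 on day 0 for JASPAR, and of 13.4 ± 2.41, −9.61 ± 8.08 and −8.78 ± 3.398 for UniPROBE (SD, n = 6, 3 and 6). Day 3 exceeded day 0 by 5.27 ± 0.848 in the Sox11 row (limma adjusted p = 6.31e-05), and in the Sox4 rows by 5.38 for JASPAR (1.59e-04), 12.9 for HOCOMOCO (3.78e-06) and 22.2 for UniPROBE (2.63e-06), against a median of −3.85 over all motifs. Day 3 exceeded day 1 by 7.33 in the Sox11 row (limma adjusted p = 8.14e-05) and by 8.02, 14.6 and 24.3 in the JASPAR, HOCOMOCO and UniPROBE rows of Sox4. On day 3, 25.9% of motifs were called higher and 58.2% lower than on day 0, and 70.3% higher and 4.27% lower than on day 1.

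The day 1 direction depended on what the scores were set against. As deposited, day 1 minus day 0 was −2.05 ± 1.12 in the Sox11 row (limma adjusted p = 0.103) and between −1.71 and −2.64 in the Sox4 rows, none called, while 8% of motifs were called higher and 75.7% lower and the median motif stood at −8.39. Relative to each library's median motif the sign flipped, and the Sox11 row gave 7.11 (limma adjusted p = 2.43e-04) and the Sox4 rows 6.52 to 7.45. With the same centring, day 3 minus day 1 shrank to 1.59 in the Sox11 row (adjusted p = 0.257) and 2.28 in the JASPAR row of Sox4 (0.149), since the median motif itself stood 6.09 higher on day 3 than on day 1.

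Most rows of the SOX family did as the Sox11 and Sox4 rows. Of 40 rows carrying 17 SOX names, 35 were called higher and 1 lower on day 3 against day 0, with a median difference of 8.80, and all 40 were called higher against day 1, the smallest of those differences being 4.43, below the 6.09 of the median motif. On day 1 against day 0, 16 were called lower and the rest not at all, with a median of −2.80, above the −8.39 of the median motif. The motifs of this family are alike, so these rows do not tell which protein is bound.

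**Figure D5:**
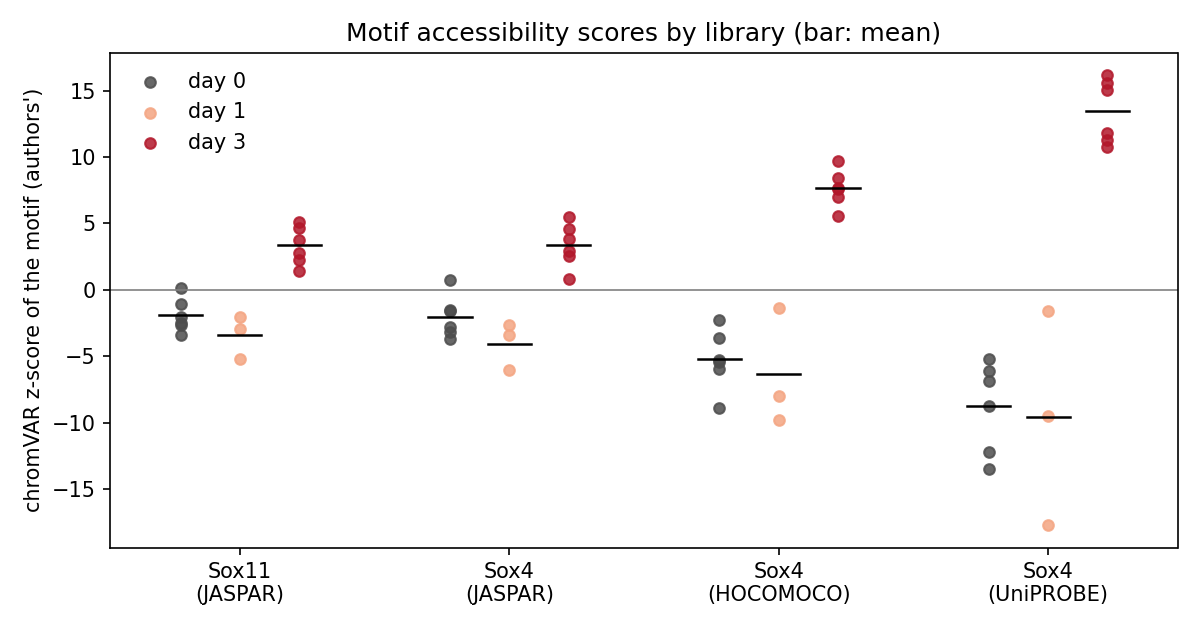
chromVAR z-scores of the Sox11 motif and of 3 Sox4 motifs in each of 15 libraries on days 0, 1 and 3, with bars for means. For every motif all 6 day 3 libraries were above 0 and above all libraries of days 0 and 1, and the UniPROBE motif reached the highest scores, 10.8 to 16.2.

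The authors' deposited table of 338 factors correlates each motif's score with the RNA of its own gene, with a median of −0.10. The authors' deposited table gives 0.659 for Sox11 (authors' p = 0.00756) and −0.862 for Sox4 (authors' p = 3.56e-05). For other SOX genes the authors' deposited table gives −0.912 for Sox6, −0.767 for Sox12, −0.413 for Sox13, 0.369 for Sox5 and 0.611 for Sox9. These values share the ATAC libraries and, between SOX motifs, much of the score, so they are not independent of one another.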

How the data were processed

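Per the labels' protocols, RNA libraries were made with SMART-Seq v4 and ATAC libraries with Nextera adaptors. Among the tools in the submitters' processing notes are HTSeq and STAR for RNA, and Bowtie2, MACS2, featureCounts and ChIPseeker for ATAC, with builds mm10 and GRCm38. No tool version is given in the sources used here.

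All tests of genes and peaks used the deposited counts, which are whole numbers. The authors' normalized values, batch-adjusted values and fold changes are on a log2 scale. The deposited motif and footprint tables hold a score. The authors' in-peak read share is a fraction, per the file headers. Each p-value named as the authors' is copied from the deposited tables.

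RNA counts (13737 of 13752 genes after filterByExpr) and peak counts (151630) were fitted with edgeR 4.0.16 (R 4.3.3), TMM scaling and the quasi-likelihood test, with all days in 1 fit, batch as a term for ATAC, and Benjamini-Hochberg adjustment over all features. Motif scores were fitted with limma 3.58.1 and batch. Log2 CPM had a prior count of 2. The edgeR and limma steps were tested on simulated data. DESeq2 1.42.0 and other alternatives are given in the closing section.

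Members and lists were chosen with earlier results of these data known. Both genes, the tested list members and, for each gene, its promoter peak, its 5 other peaks with the smallest day 3 p and its strongest peak could be named singly. Tests of the weakest peaks are given as ranges or counts. The 5 genes most like each member were taken by Pearson's r. No library pair agreed within sampling noise. The planned RNA tests assumed 15 libraries and used 13. The deposited files of single libraries and the distal sequences were not used here. No value is reported for SOX genes not analysed here. 1 marker of the planned lists is not reported here. Replicate numbers were not used as pairs in the main fits. Correlations of same-numbered libraries ran from −0.13 to 0.07 for RNA and from −0.21 to 0.22 for ATAC within a batch. Those of other pairs ran from −0.08 to 0.09 for RNA and from −0.28 to 0.25 for ATAC within a batch. With so few libraries a day, these values cannot show whether same-numbered libraries were paired.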

Additional observations from a re-analysis of the deposited data

How the results depend on the processing

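Across the alternatives run, the Sox11 RNA differences from day 0 and the Sox4 differences on days 3 and 4 kept their direction and call, as did the Sox4 peak 21.2 kb downstream and all 4 motifs on day 3 against day 0. What depth limits is Sox4 RNA, which rests on 47 to 441 counts, and the weak distal peaks. A lone library of a day was assumed to vary like the other days. The causes of the changes below were not tested.

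For RNA, Sox4 on day 2 against day 1 passed with DESeq2 (−1.03) and with only the 2 days compared (−1.04), and on day 2 against day 0 it missed with the sequencing components as terms (−0.92, adjusted p = 0.189). Sox11 on day 4 against day 3 was 0.56 on the authors' normalized values (adjusted p = 0.0814). With the replicate number as a block, Sox4 on day 2 against day 0 was −0.999 (adjusted p = 0.0575), Sox4 on day 4 against day 3 was −0.00995 and 1 peak was called higher on day 3 against day 1 (the Sox4 peak 21.2 kb downstream, 1.17), and no other call changed. The log2 ratio of Sox11 to Sox4 was 3.02, 5.46, 6.30 and 6.66 on single days.

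Leaving out 1 library each gave −1.49 to −0.95 for Sox4 on day 2 against day 0, −0.43 to 0.06 on day 1 against day 0 (0.0572 without day 0 replicate 3), −0.20 to 0.45 on day 4 against day 3 (−0.198 without day 3 replicate 1), and 0.52 to 0.60 for Sox11 on day 4 against day 3. Peaks called higher ranged from 1 to 3 on day 1 against day 0 and from 0 to 1 on day 3 against day 1. The Sox11 promoter on day 1 against day 0 ranged from −0.08 to 0.22, at −0.0786 when day 0 replicate 1 and at −0.0551 when day 1 replicate 3 was left out. The day 1 motif differences ranged from −6.11 to 1.97 for UniPROBE (1.97 without day 1 replicate 2), −4.23 to −0.00633 for HOCOMOCO and −3.33 to −1.63 for JASPAR Sox4.

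The number of peaks called higher on day 1 against day 0 was 1 at an adjusted p below 0.01, within 100 kb, with the trend with peak strength removed and with the in-peak read share in the model, and 0 without batch and on the authors' adjusted values, where edgeR without batch and limma called 0 of all 151630 peaks higher. In batch 2 alone 1 peak, the Sox4 peak 3.4 kb upstream, was lower on day 1 and on day 3 against day 0 (−0.40 each) and 2 were higher on day 3 against day 1. With only the 2 days compared, 1 was lower on day 1 against day 0 and 2 were higher on day 3 against day 1. DESeq2, RLE size factors and the in-peak read share each gave 1 higher on day 3 against day 1.

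Signs of uncalled peaks turned in these fits. The Sox11 promoter on day 1 was −0.39 without batch, and the Sox11 peak 14.4 kb upstream on day 3 was −0.0117 on the authors' adjusted values. The Sox4 promoter on day 1 was 0.0348 with library size only, 0.21 with the trend removed and 0.25 on the authors' adjusted values, and on day 3 it was −0.0262 in batch 1 alone. The Sox4 peak 3.4 kb upstream was 0.0530, 0.10 and 0.0780 on day 1 with the trend removed, with the in-peak read share and on the authors' adjusted values, and 0.0108 on day 3 with that share. Centring the motif scores per library gave 7.06 (UniPROBE), 7.45 (HOCOMOCO), 6.52 (JASPAR) and 7.11 (Sox11) on day 1 against day 0, and 2.28 (JASPAR) and 1.59 (Sox11) on day 3 against day 1.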
